A study of Mus musculus with 2 samples.

Results

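The miR-200 family, miR-203 and miR-205 are the microRNAs most closely tied to epithelial cells, and their genes were followed here in the mouse heart, a mostly non-epithelial organ. The 7 genes Mir200b, Mir200a, Mir429, Mir200c, Mir141, Mir203 and Mir205 were taken by their GENCODE M21 symbols from the 2202 miRNA genes of the deposited tables, and all 7 were found. MicroRNA-seq had been done on 2 hearts of 10-day-old female B6CASTF1/J mice (first-generation offspring of a C57BL/6J by CAST/EiJ cross), with 1 library per heart and no treatment named in the labels. The labels number the hearts as biological replicates 1 and 2 and give each a biosample of its own, but a single donor identifier for both. There is 1 group and no contrast between conditions, so the values describe the level of each gene and how far the hearts differed. The tissue is whole heart, in which fewer cells of a type and less of an RNA per cell cannot be told apart.

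A microRNA is cut from a hairpin precursor and guides silencing proteins to messenger RNAs through its seed, the bases near its 5′ end that pair with the target. Members of the miR-200 family repress the transcription factors Zeb1 and Zeb2, which silence E-cadherin and other epithelial genes and in turn repress the miR-200 genes, so that family and factors hold each other in check as cells move between epithelial and mesenchymal states. miR-203 restrains p63 and growth in the differentiating layers of skin, and miR-205 is known from the basal cells of stratified and glandular epithelia and also targets the Zeb factors. In the heart, muscle cells, fibroblasts, vessels and blood cells are not epithelial, while the epicardium is a mesothelial sheet.

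The mature sequences are shown because the family divides by seed and its members differ by few bases, which bears on how their reads can be told apart. Each is the arm usually taken as the functional one, from RefSeq on GRCm38.p6, written 5′ to 3′ with the seed (bases 2 to 8) in capitals. RefSeq held sequences for all 7 genes.
mmu-miR-200b-3p: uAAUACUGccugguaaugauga
mmu-miR-200c-3p: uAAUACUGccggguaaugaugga
mmu-miR-429-3p: uAAUACUGucugguaaugccgu
mmu-miR-200a-3p: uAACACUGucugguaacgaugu
mmu-miR-141-3p: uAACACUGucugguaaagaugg
mmu-miR-203-3p: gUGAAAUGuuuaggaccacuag
mmu-miR-205-5p: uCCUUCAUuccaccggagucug

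The first 3 share 1 seed, and miR-200a-3p and miR-141-3p share another. Counted from 1 at the 5′ end, U4C is the single seed difference from miR-200b-3p to miR-200a-3p. Among 1679 mature names in the RefSeq table, no miRNA from another gene carried either seed, nor the seed of miR-203-3p or of miR-205-5p. Within a seed group the nearest pairs were miR-200b-3p and miR-200c-3p, which differ over 22 positions by U11G and A22G, and miR-200a-3p and miR-141-3p, which differ by C17A and U22G. Seed groups and gene clusters cross, since each cluster holds members of both groups.

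The tables assign reads placed at 1 position only, so near-identical copies would lower a count. The longest run that a hairpin of the 7 shared with any other miRNA gene of the tables, on either strand, was 17 nt, between Mir200a and Mir141. Mir200b and Mir200c shared 14 nt, and Mir203 shared at most 11 nt with another gene. Each run is shorter than the mature miRNA. Outside their own hairpins, the printed sequences matched M21 transcripts only where a longer RNA overlaps the same locus. No genome sequence was searched.

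Mir200b (chr4:156055681-156055750), Mir200a (chr4:156054896-156054985) and Mir429 (chr4:156053905-156053987) lie in that order of transcription on the minus strand of chromosome 4 in mm10, within 1846 nt. All 3 are in introns of Ttll10, a gene of the tubulin tyrosine ligase-like family, on its strand. They also overlap the noncoding gene Gm13648, in which Mir200b and Mir200a are intronic and Mir429 exonic. Mir200c (chr6:124718322-124718390) and Mir141 (chr6:124717914-124717985) lie within 477 nt on the minus strand of chromosome 6, in an intron of the noncoding Gm15884, and Mir141 also overlaps an exon of Gm29008. The nearest protein-coding gene to them is Phb2, a prohibitin gene, on the other strand. Mir203 (chr12:112130880-112130955, plus strand) is intergenic, 3321 nt from Aspg. Mir205 (chr1:193507463-193507530, minus strand) lies in an exon of the long noncoding RNA 4631405K08Rik, which RefSeq names Mir205hg.

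All 7 genes were detected, which here means 10 or more counts on the gene strand in both libraries. Of all 2202 genes, 15.7% were. The libraries held 4260561 (replicate 1) and 4583025 (replicate 2) counts on named miRNA genes, and levels are given as CPM, each gene's count scaled to a library total of 1000000. A read spans a whole mature miRNA, so levels were not divided by gene length. The cardiac muscle genes Mir499, Mir208a and Mir208b, markers of the labelled tissue, summed to 9644 CPM in replicate 1 and 6536 CPM in replicate 2, and all 3 were detected.

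Mir200c had by far the highest level of the 7. It had 2428 counts in replicate 1 and 1237 in replicate 2, or 569.9 CPM (exact 95% Poisson interval 547 to 593) and 269.9 CPM (255 to 285). Its mean of 419.9 ± 212 CPM (SD, n = 2) placed it at rank 92 of 2202 genes in replicate 1 and rank 123 in replicate 2. The heart of replicate 1 was the higher, and the counting intervals did not overlap.

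Mir203 followed with 560 and 328 counts, 131 and 71.6 CPM, and a mean of 102 ± 42.3 CPM (SD, n = 2). Its intervals of 121 to 143 and 64.0 to 79.7 CPM did not overlap, and replicate 1 was again the higher.

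Mir200b had 95 counts in replicate 1 and 189 in replicate 2, or 22.3 CPM (18.0 to 27.3) and 41.2 CPM (35.6 to 47.6), with a mean of 31.8 ± 13.4 CPM (SD, n = 2). It was higher in replicate 2, the one gene of the 7 with that order. Mir429, its cluster mate, had 156 and 97 counts, or 36.6 CPM (31.1 to 42.8) and 21.2 CPM (17.2 to 25.8), with a mean of 28.9 ± 10.9 CPM. Mir141 had 107 and 74 counts, or 25.1 CPM (20.6 to 30.3) and 16.1 CPM (12.7 to 20.3), with a mean of 20.6 ± 6.34 CPM. The intervals of the 2 hearts did not overlap for Mir429 or Mir141, and those of Mir200b did not overlap in the other direction.

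Mir205 and Mir200a were close to the depth limit. Mir205 had 42 and 16 counts, or 9.86 CPM (7.10 to 13.3) and 3.49 CPM (2.00 to 5.67), with a mean of 6.67 ± 4.50 CPM (SD, n = 2). Mir200a had 24 and 15 counts, or 5.63 CPM (3.61 to 8.38) and 3.27 CPM (1.83 to 5.40), with a mean of 4.45 ± 1.67 CPM. For Mir200a the intervals of the hearts overlapped. The limit that a count of 0 allows, 3 counts, equals 0.704 CPM for the first heart and 0.655 CPM for the second, and both genes were above it in each. These intervals and limits cover counting error only.

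**Figure D1:**
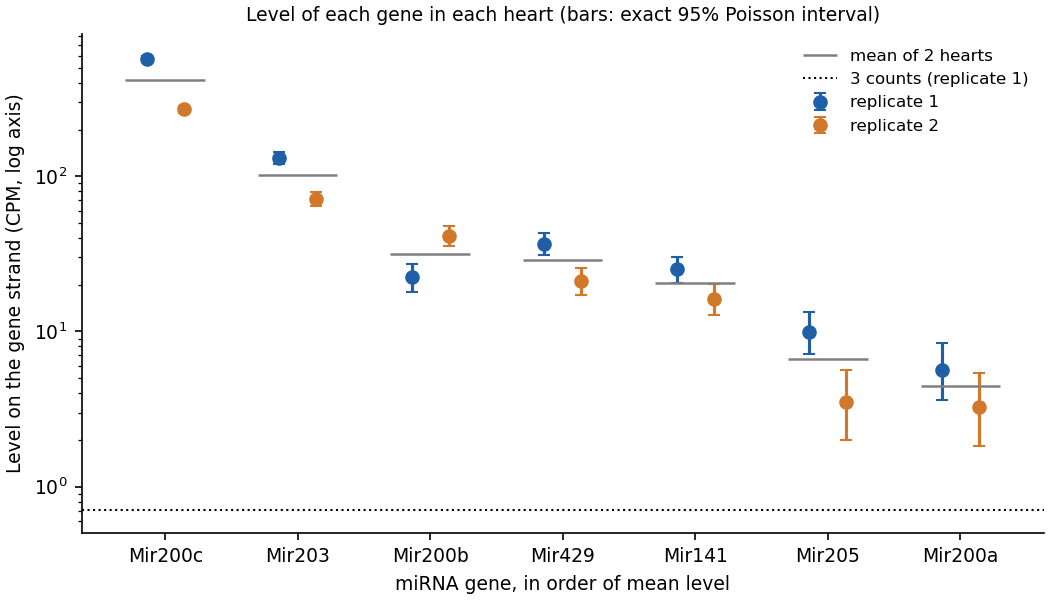
Level of the 7 genes in each heart, in CPM on a log axis, with exact 95% Poisson intervals, the mean of the hearts as a grey line and the 3-count limit of replicate 1 dotted. Mir200c stands at 569.9 and 269.9 CPM, and Mir200b is the gene whose replicate 2 value lies above that of replicate 1.

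The order of levels was not the same in both hearts. In both, Mir200c led, Mir203 came next, and Mir205 and Mir200a were last. The ratio of Mir200c to Mir203 was 4.34 in replicate 1 (3.95 to 4.76, exact 95% interval from the counts) and 3.77 in replicate 2 (3.34 to 4.27). Mir200b lay below Mir429 and Mir141 in replicate 1 and above both in replicate 2. In replicate 1 the counting intervals of Mir200b (18.0 to 27.3 CPM) and Mir141 (20.6 to 30.3 CPM) overlapped. Mir429 over Mir141 was 1.46 (1.13 to 1.88) and 1.31 (0.959 to 1.80), so in replicate 2 these neighbours did not differ beyond counting error. Mir205 over Mir200a was 1.75 (1.04 to 3.02) and 1.07 (0.494 to 2.32), so the lowest 2 were likewise not separated in replicate 2. Mir203 exceeded Mir205 by 13.3-fold (9.74 to 18.7) and 20.5-fold (12.4 to 36.3).

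Together the 7 genes had 3412 counts in replicate 1, 0.0801% of the counts on named genes (exact 95% Clopper-Pearson interval 0.0774 to 0.0828), and 1956 in replicate 2, 0.0427% (0.0408 to 0.0446). The mean share was 0.0614% ± 0.0264 (SD, n = 2). Mir200c took 71.2% and 63.2% of these counts, Mir203 16.4% and 16.8%, and Mir200b 2.78% and 9.66%. The median of the 7 mean levels was 28.9 CPM, against 85.1 CPM over the 346 genes detected.

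The clusters differed in level and in how their members compared between the hearts. The chromosome 4 cluster (Mir200b, Mir200a and Mir429) had nearly the same sum in both, 275 counts or 64.5 CPM in replicate 1 and 301 counts or 65.7 CPM in replicate 2. The chromosome 6 cluster (Mir200c and Mir141) had 2535 counts or 595 CPM and 1311 counts or 286 CPM. The chromosome 6 cluster therefore exceeded the chromosome 4 cluster by 9.22-fold in replicate 1 (8.14 to 10.5) and 4.36-fold in replicate 2 (3.84 to 4.95), and these intervals did not overlap. The excess was carried by Mir200c. With Mir200c left out, an alternative chosen after the values were seen, the ratio was 0.389 in replicate 1 and 0.246 in replicate 2.

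Within the chromosome 4 cluster Mir200b and Mir429 differed between the hearts in opposite directions, while their sum with Mir200a was nearly level. Mir200a over Mir429 was 0.154 in replicate 1 (0.0957 to 0.237) and 0.155 in replicate 2 (0.0834 to 0.268), nearly the same ratio in both hearts. Mir200b over Mir429 was 0.609 (0.467 to 0.791) in replicate 1 and 1.95 (1.52 to 2.52) in replicate 2, which is a 3.20-fold difference between the hearts with a change of order. Mir200b over Mir200a was 3.96 (2.51 to 6.48) and 12.6 (7.45 to 23.0), a 3.18-fold difference, and neither pair of intervals overlapped. In the chromosome 6 cluster Mir200c over Mir141 was 22.7 (18.7 to 27.8) and 16.7 (13.2 to 21.4), with intervals that overlapped. Ratios within a heart do not depend on how the libraries are scaled. How well each sequence is ligated and amplified also enters a ratio between genes, and was not measured.

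**Figure D2:**
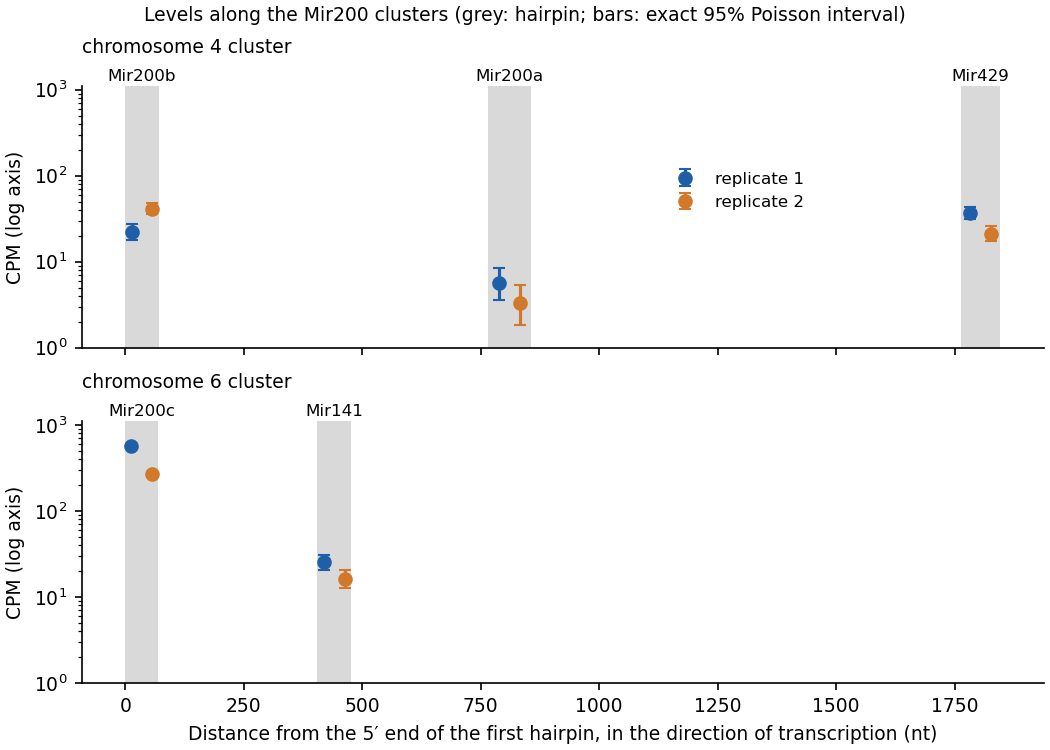
Levels of the 5 miR-200 family genes along their clusters, in CPM on a log axis against the distance in nt from the 5′ end of the first hairpin, with exact 95% Poisson intervals and each hairpin in grey. Mir200b, the first gene of the chromosome 4 cluster, is higher in replicate 2, while Mir429, the last, is higher in replicate 1.

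By seed, the group of Mir200b, Mir200c and Mir429 had 2679 counts in replicate 1 and 1523 in replicate 2, against 131 and 89 for Mir200a and Mir141. The ratio was 20.5 (17.2 to 24.6) and 17.1 (13.8 to 21.4), and the intervals overlapped. Mir200c made most of the first group, and without it, chosen after the values were seen, the ratio was 1.92 and 3.21. The tables count whole genes, so the arms of a hairpin were not told apart, and the seed groups rest on the assumption that each gene's reads come mainly from the arm printed above.

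**Figure D3:**
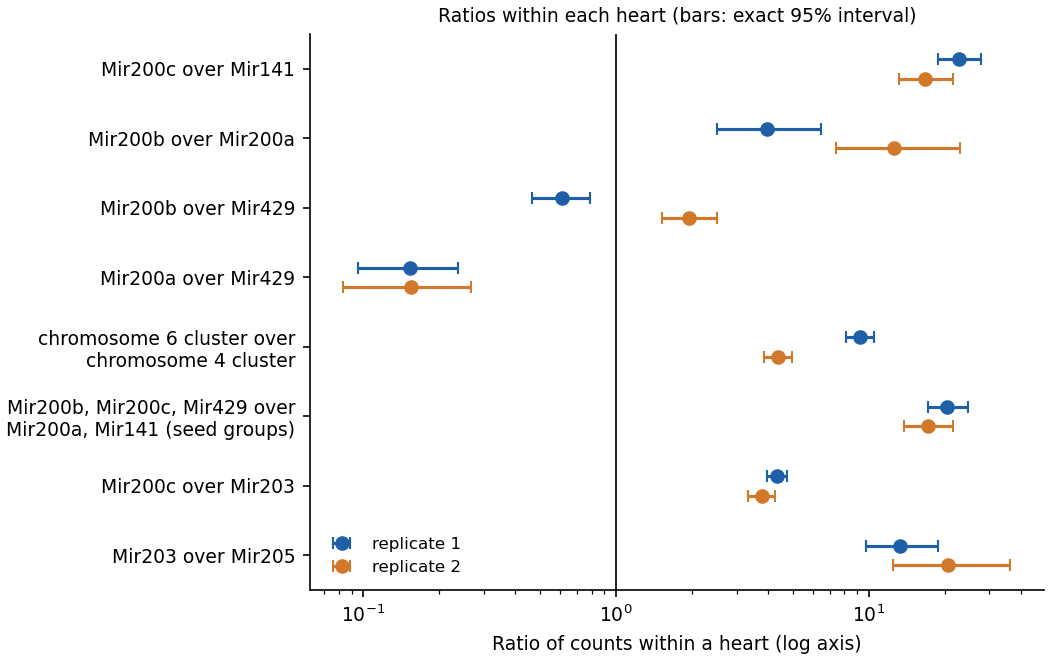
Ratios of counts within each heart on a log axis, with exact 95% intervals from the counts and a line at a ratio of 1. The ratios of Mir200b to its cluster mates and of the chromosome 6 to the chromosome 4 cluster have intervals that do not overlap between the hearts, and Mir200a over Mir429 stays at 0.154 and 0.155.

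Between the hearts, 6 of the 7 genes differed by more than counting noise (exact two-sided binomial test given the scaled library sizes, Benjamini-Hochberg adjusted p under 0.05 over the 375 genes whose counts summed to at least 20). This was so for 55.2% of all genes tested, and the test compares these 2 libraries, not conditions. Of the 6, 5 were higher in replicate 1 and 1 was higher in replicate 2, where 29.1% of all genes tested were called higher in replicate 1 and 26.1% higher in replicate 2. The median log2 ratio of replicate 2 over replicate 1 was -0.72 over the 7 genes and -0.02 over the 375. A call at a higher count needs a smaller difference, so the number called depends on depth as well as on size.

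Mir200c had a log2 ratio of -1.01 (exact 95% interval -1.11 to -0.91), or 2.02-fold higher in replicate 1, with an adjusted p of 8.04e-94 in the exact binomial test. Mir205 had -1.40 (-2.36 to -0.57; adjusted p = 0.00124, exact binomial test), the largest ratio of the 7 and a wide interval. Both passed the test and were at least 2-fold apart, as did 10.7% of all genes tested. Mir203 had -0.81 (-1.01 to -0.61), Mir429 -0.72 (-1.11 to -0.35) and Mir141 -0.57 (-1.02 to -0.13), each past the test. Mir200a had -0.70 (-1.75 to 0.27; adjusted p = 0.225, exact binomial test) and did not pass it. Its interval holds both 0 and the values of the other genes higher in replicate 1.

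Mir200b went the other way, with a log2 ratio of 0.95 (0.59 to 1.32; adjusted p = 2.46e-07, exact binomial test), or 1.93-fold higher in replicate 2. Its interval did not overlap that of any of the other 6 genes.

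**Figure D4:**
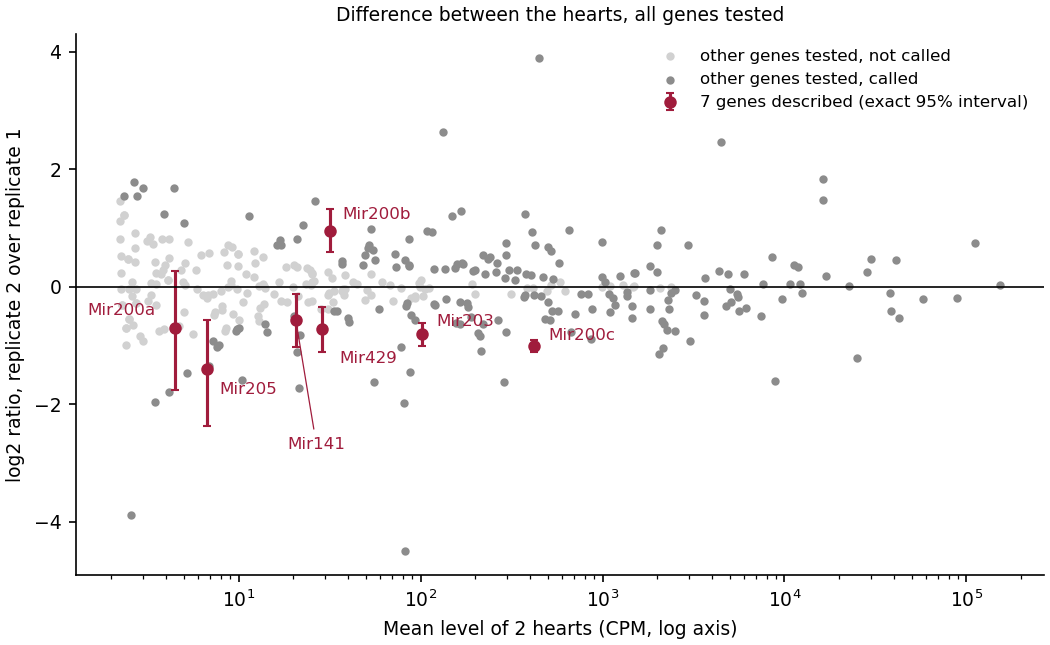
Log2 ratio of replicate 2 over replicate 1 against mean level in CPM (log axis) for the 375 genes tested, in dark grey where called and light grey where not, with the 7 genes in red and their exact 95% intervals. Mir200b lies at 0.95 and the other 6 between -0.57 and -1.40.

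A list of 10 other miRNA genes known from epithelia was set beside the 7. Of these, 9 were detected, where 15.7% of all 2202 genes were. The summed level of the 10 was 700.1 CPM in replicate 1 and 392 CPM in replicate 2. Mir31, a miRNA of skin and other epithelia, led with 440.1 and 136 CPM and carried this difference: without it, chosen after the values were seen, the other 9 genes summed to 260.1 CPM in replicate 1 and 256 CPM in replicate 2. Mir184, known from cornea and lens, had 95.8 and 80.5 CPM, and Mir215, of gut and kidney, had 60.1 and 84.9 CPM. Of the 9 genes tested, 4 passed the test as higher in replicate 1 and 2 as higher in replicate 2, and the median log2 ratio was -0.18. Over all genes tested these shares were 29.1% and 26.1%. Mir96, of the sensory Mir183 cluster, was the one gene not detected, with 5 counts in replicate 1 and 0 in replicate 2, which allows up to 0.655 CPM.

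Markers of other cells differed between the hearts as well. The 3 cardiac muscle genes of the list were all higher in replicate 1, with log2 ratios from -1.05 to -0.19. The muscle genes Mir1a-2 (log2 ratio 0.37) and Mir133a-1 (-1.46), outside this list, were called in opposite directions. They were chosen after the values were seen. Mir1a-2 had 185 counts in replicate 1 and 245 in replicate 2, and Mir133a-1 had 33 and 12. Numbered copies of both, Mir1a-1 and Mir133a-2, are annotated too, and near-identical copies would lower a count. How far these counts were lowered was not tested. Of the 3 endothelial genes, Mir221 and Mir222 were higher in replicate 1 and Mir126a in replicate 2. The mesenchymal list (Mir214, Mir199b and Mir21a) summed to 18139 and 9460 CPM, with 1 gene called higher in replicate 1 and 2 in replicate 2. Mir21a, the gene higher in replicate 1, carried the difference in the sum, at 13476 and 4247 CPM. Mir199a-2, outside this list and chosen after the values were seen, was also called higher in replicate 1 (log2 ratio -0.82). It had 121 and 70 counts, and a numbered copy, Mir199a-1, is annotated, so the same limit holds. The smooth muscle pair summed to 53735 and 35952 CPM, with Mir143 called higher in replicate 1 and Mir145a, at a log2 ratio of -0.018, not called. The 2 erythroid genes were both higher in replicate 2, with a sum of 268 CPM in replicate 1 and 749.5 CPM in replicate 2. The 4 white blood cell genes summed to 2295 and 2447 CPM, with 2 called, both higher in replicate 2. The part of these differences in the values of the 7 genes was not tested.

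On the strand opposite to Mir203 both libraries held reads, 12 in replicate 1 and 8 in replicate 2, and Mir203 was the single gene of the 7 with more than 3 such reads in both. Among the 2138 genes without an annotated miRNA gene on the other strand, 0.14% had that many.

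By level alone, measured as the distance of log2(CPM + 1) over the 2 hearts, the genes nearest to Mir200c were Mir382 (distance 0.488) and Mir501 (0.593). Those nearest to Mir203 were Mir338 (0.208) and Mir5099 (0.326), and to Mir200b Mir378c (0.486) and Mir331 (0.520). Mir370 (0.231) and Mir665 (0.298) lay nearest to Mir429, and Mir3074-1 (0.0663) and Mir199a-2 (0.187) to Mir141. For Mir205 they were Mir1960 (0.0751) and Mir201 (0.370), and for Mir200a Mir6990 (0.0876) and Mir7213 (0.224). No gene of the 7 was among the 2 nearest of another. With 2 hearts such nearness describes level and no more.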

How the data were processed

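MicroRNA-seq libraries of 2 hearts were used. The authors deposited raw counts of reads per miRNA gene, 1 table per library, made on mm10 with GENCODE M21, per the file headers. For the aligner and the counting program, the sources used here give no name. Of 10782737 reads in replicate 1 and 10201509 in replicate 2, 38.9% and 38.0% were placed at more than 1 position and 16.9% and 12.2% were unmapped. Such category rows entered neither library sizes nor tests. All 2202 IDs matched M21.

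The gene-strand column was the main measure. CPM used total counts on named genes. Ratios between the hearts used TMM sizes (edgeR 4.0.16, R 4.3.3) and a prior count of 0.5, with an exact binomial test and Benjamini-Hochberg adjustment over all genes tested. The test was run on counts simulated with Poisson noise only and known library totals. That run checks the calculation and not how well the test suits these libraries. With 1 library on each side, edgeR's own tests had no residual degrees of freedom. Within-heart ratios and shares carry exact 95% Clopper-Pearson intervals. A chi-square test of the 2 count columns gave 301070 with 374 degrees of freedom, more than sampling noise.

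Alternatives were DESeq2 1.42.0 size factors, total counts, the unstranded column, other minimums and denominators, gene length, and leaving out Mir378a or a replicate. Python 3.11.15 was used with scipy 1.17.1, matplotlib 3.10.9, pandas 2.3.3 and numpy 2.4.6. The genes, lists, pairs and naming rule (all 7 genes, up to 3 leading genes of a list and any at 0, and the 2 nearest in level to each gene) were chosen with earlier results of these data known. CAST/EiJ alleles were not examined.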

Additional observations from a re-analysis of the deposited data

Results flagged for a closer look

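Mir203 had reads on the strand opposite to the gene, 12 in replicate 1 and 8 in replicate 2, more than the limit of 3 counts taken for a count of 0. M21 annotates no miRNA gene there. They made up 2.10% (exact 95% Clopper-Pearson interval 1.09 to 3.64) and 2.38% (1.03 to 4.64) of the reads at the locus, with wide intervals that overlapped. The opposite reads equalled 2.82 CPM in replicate 1 and 1.75 CPM in replicate 2. Whether they followed the level of Mir203 was not tested. Over the 2138 genes with no annotated miRNA gene on the other strand, 93 and 69 such reads were counted in all, and 3 genes (0.14%) had more than 3 in both libraries: Mir203, Mir122 and Mir5620. Of the other 6 genes described here, Mir200a had 3 opposite reads in replicate 1 and 0 in replicate 2, and the rest had 0 in both.

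RefSeq on GRCm38.p6 annotates a minus-strand miRNA gene at this position, Gm51289, with the older name Mir203b and the mature sequences below (seed in capitals).
mmu-miR-203b-3p: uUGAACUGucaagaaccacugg
mmu-miR-203b-5p: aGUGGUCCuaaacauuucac
For comparison, the arm of Mir203 that faces miR-203b-3p is printed too.
mmu-miR-203-5p: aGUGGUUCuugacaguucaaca
The miR-203b-3p sequence is complementary to miR-203-5p over 20 nt, and miR-203b-5p to miR-203-3p over 20 nt. The tables do not show where within the locus the opposite reads lie.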

How the results depend on the processing

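Of 127 values under alternatives that kept both hearts, 98 counted as kept. They kept their call, moved by less than the spread between the hearts or, for numbers of genes, stayed within a set factor. Some of these 98 could not change, such as within-heart ratios of genes with the same counts in the unstranded column. The number of genes detected counted as kept at 5 of 7 when 50 or more counts were required in both libraries. Of all genes, 256 were then detected, against 346. The spread of 2 hearts is also wide: the share of the 7 genes, 0.0614%, counted as kept at 0.0867% in the unstranded column. Of the values not counted as kept, 11 were levels of single genes in CPM, all higher in the unstranded column or lower over all reads. In the unstranded column the counts of the 7 genes stayed the same or rose only by their opposite-strand reads. The library totals there were lower, 3107037 in replicate 1 and 3108772 in replicate 2. Leaving out a heart gave 32 more values, which with 2 hearts cannot move by more than the spread between them. No paired analysis was possible because all samples belong to 1 group. The count of 6 called genes of 7 stayed at 6 with DESeq2 sizes (52.0% of all genes tested were called), total counts (56.8%), no strand (53.1%) and no minimum (26.2%). It was 5 of 5 tested at a summed count of 100 or more, where 71.4% of all genes were called. Called and 2-fold or more apart were 2, both higher in replicate 1, and 0 higher in replicate 2, where Mir200b stood at 1.93-fold; of all genes 10.7% were. With the libraries scaled to the summed count of the 7 genes, chosen after the data were seen, 2 of 7 were called against 78.1% of all genes, 1 higher in each replicate. That scaling adds the same amount to every gene's log2 ratio, with the median of all genes at 0.83, so the values of Mir429 (0.12), Mir141 (0.27) and Mir203 (0.032) above 0 follow from it and test nothing about these genes. Over all reads the share of the 7 genes was 0.0254%. The mean log2 ratio of Mir200a over Mir429 (-2.70) was -2.61 without strand and -2.81 per nt of gene length. Without Mir200c the cluster ratio was -1.69 and the seed ratio 1.31 on the log2 scale. Depth limits Mir200a and Mir205.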
